A study of Homo sapiens and Homo sapiens
Mus musculus with 19 samples.

Results

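The genes described here are 40 genes of the hypoxia response and of glycolysis, chosen by their symbols from the 57820 human genes of the deposited table. They comprise 19 genes that sense or respond to low oxygen and 21 genes for glucose uptake, glycolysis and the fate of pyruvate. Of the 40 genes, 37 passed the filter on low values and were among the 10889 genes tested, whereas SLC16A3, PLOD2 and LOX did not.

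In well-oxygenated cells, prolyl hydroxylases of the EGLN family mark the alpha subunits of the hypoxia-inducible factors (HIFs) for destruction. When oxygen is short, the alpha subunits persist, pair with ARNT and bind short ACGTG motifs near their target genes. These targets include glucose transporters, most glycolytic enzymes, the carbonic anhydrases that buffer acid at the cell surface, secreted vascular factors and PDK1. PDK1 curbs the oxidation of pyruvate inside the mitochondria. EPAS1, the gene for HIF-2 alpha, is also expressed by sympathoadrenal cells, the lineage from which neuroblastoma (NB) arises.

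The study asked what the transcription factor TWIST1 does in NB, and sequenced total RNA of SK-N-Be2c, a MYCN-amplified human NB cell line, in culture and as orthotopic tumors. Control cells were 3 clones labelled WT, and sgTWIST1 cells were 3 clones labelled TWIST1_KO, edited by CRISPR/Cas9 with a guide against TWIST1. Control and sgTWIST1 tumors were 4 xenografts each, grown in the left adrenal gland of athymic Swiss nude mice up to 1000 mm3. These hosts lack mature T cells but keep macrophages, endothelium and fibroblasts, and the labels do not say which clone gave rise to which tumor. According to the paper, sgTWIST1 tumors grew with a delay relative to Control tumors. Between the tumor groups, genotype therefore cannot be told apart from time of growth.

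Human totals ranged from 21426499 to 49990985 counts a sample, and murine totals in the tumors from 577479 to 7248286, or 2.44% to 13.97% of all counts. TWIST1 itself stood at 62.0 to 73.5 CPM (counts scaled to a common library size) in Control cells and 22.8 to 33.8 in sgTWIST1 cells, and at 85.0 to 104 in Control tumors and 24.9 to 48.6 in sgTWIST1 tumors. The edited transcript was still present in sgTWIST1 samples, and Control exceeded them by 1.18 ± 0.17 (SE) log2 units in cells and 1.27 ± 0.19 in tumors (adjusted p = 0.00223 and 0.000415, edgeR quasi-likelihood test). The 10 adrenergic NB markers summed to 4225 to 8132 CPM in every group. Of the human leukocyte, endothelial and fibroblast markers, 8 of 9 were in the table. They summed to 46.9 to 112 CPM in Control cells against 314 to 512 in sgTWIST1 cells, mostly DCN and LUM, and to 24.1 to 48.8 in Control tumors against 84.8 to 239 in sgTWIST1 tumors. PTPRC, a leukocyte marker, and KDR, an endothelial marker, stayed under 3 CPM in every sample. CD68, also of leukocytes, reached 6.39 CPM in sgTWIST1 cells, and CDH5, also endothelial, 20.7 CPM in sgTWIST1 tumors. The marker sums thus moved with genotype at both sites. They were lower in tumors than in cells, with a slight overlap in Control. The part of these markers in the results was not tested. The share of counts from RN7SL1, a small structural RNA, was 6.54% to 8.77% in Control clones and 4.14% to 5.15% in sgTWIST1 clones, without overlap. In tumors it was 4.06% to 16.2% and 4.20% to 11.3%, and its part was not tested either. In bulk RNA, fewer cells of a type and less RNA per cell cannot be told apart.

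In what follows, a gene passed the test with an adjusted p under 0.05 over all genes tested, and a DE gene also had an absolute log2(FC) of at least 1. A positive log2(FC) between genotypes means a higher level in Control. CPM are scaled over all 14 samples and so can be compared between cells and tumors for 1 gene, whereas levels of different genes are compared only as RPKM, which is CPM per kilobase of exon.

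The promoters of ANGPTL4, CA9 and PDK1 are shown as examples of the motif bound by the HIFs. Of the genes DE with the same sign in both genotypes or at both sites and with a listed promoter, these 3 had the largest log2(FC) among those with a match. Capitals mark ACGTG on either strand. Each is a run of 120 bases 5′ to 3′ along the gene's own strand, from the RefSeq promoters on GRCh38.p14.
ANGPTL4, chr19:8363921-8364040, plus strand, from 234 to 115 bases before the start: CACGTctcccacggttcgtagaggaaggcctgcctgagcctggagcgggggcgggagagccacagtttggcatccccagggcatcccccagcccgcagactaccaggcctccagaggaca
CA9, chr9:35673808-35673927, plus strand, from 120 to 1 bases before the start: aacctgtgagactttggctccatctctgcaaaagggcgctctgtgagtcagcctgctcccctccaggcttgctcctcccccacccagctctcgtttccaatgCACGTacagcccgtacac
PDK1, chr2:172555970-172556089, plus strand, the 120 bases before 1 of its 2 listed starts: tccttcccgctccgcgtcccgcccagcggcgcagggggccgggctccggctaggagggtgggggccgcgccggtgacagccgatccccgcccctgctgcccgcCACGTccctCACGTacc
CACGT is ACGTG read on the other strand. The match lies close to the start in CA9 and PDK1, which has a pair of matches, and far upstream in ANGPTL4.

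Promoters of 37 of the 40 genes were listed, at 68 starts in all. In the 250 bases before the start, ACGTG was found on either strand in 42.6% of these 68 promoters, against 22.7% of the 12161 promoters of all genes tested and 18.5% of all 35116 promoters. CACGTG, an E-box that contains ACGTG, was found in 11.8%, 8.42% and 6.34%, respectively. CATATG, an E-box bound by TWIST1, was found in 1 of the 68 promoters, or 1.47%, against 1.18% of those of the genes tested and 2.63% of all. No ACGTG was found in the windows of EPAS1, KDM3A, CA12 or ADM, nor before the other start of PDK1. A match describes the letters of the window and not a bound site.

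Most of the hypoxia genes tested, and few of the glycolysis genes, passed the test as higher in tumors than in cells. The filter on low values favoured this count, as set out below. In Control samples 15 of 37 genes rose from cells to tumors and 5 fell, and in sgTWIST1 samples 12 rose and 2 fell. Over all genes tested, 18.3% rose and 19.4% fell in Control, and 22.7% rose and 17.8% fell in sgTWIST1. Of the 16 hypoxia genes tested, 11 rose in Control and 10 in sgTWIST1, with median log2(FC) of 0.98 and 1.19. These counts include genes that a filter on the highest level let in through the tumors, where they were high. ANGPTL4, NDRG1, ANKRD37, CA9 and PDK1 exceeded 2 RPKM in no library of any clone. Without these 5 genes, 8 of 12 hypoxia genes rose and 1 fell in Control, and 7 rose and 0 fell in sgTWIST1. Of all 32 remaining genes 11 rose and 5 fell in Control, and 8 rose and 2 fell in sgTWIST1. This exclusion did not go by genotype. EPAS1, ADM and INSIG2, which rose in sgTWIST1, exceeded 2 RPKM in no library of an sgTWIST1 clone. KDM3A and CA12, which rose in Control, exceeded it in no library of a Control clone. The shares of all genes were not recomputed with such genes left out. Among the 21 glycolysis genes, 4 rose and 4 fell in Control, and 2 rose and 2 fell in sgTWIST1, with medians of -0.08 and -0.01 beside -0.01 and 0.01 for all genes. Without the filter on low values, 13 genes rose and 6 fell in Control and 11 rose and 3 fell in sgTWIST1. DE genes numbered 12 in Control and 9 in sgTWIST1, against 11.8% and 12.7% of all genes tested. Tumors and cells differed as well in amount of RNA, sequencing lanes, murine RNA and, by the labels, the RNA extraction kit, and growth site cannot be told apart from these.

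**Figure D1:**
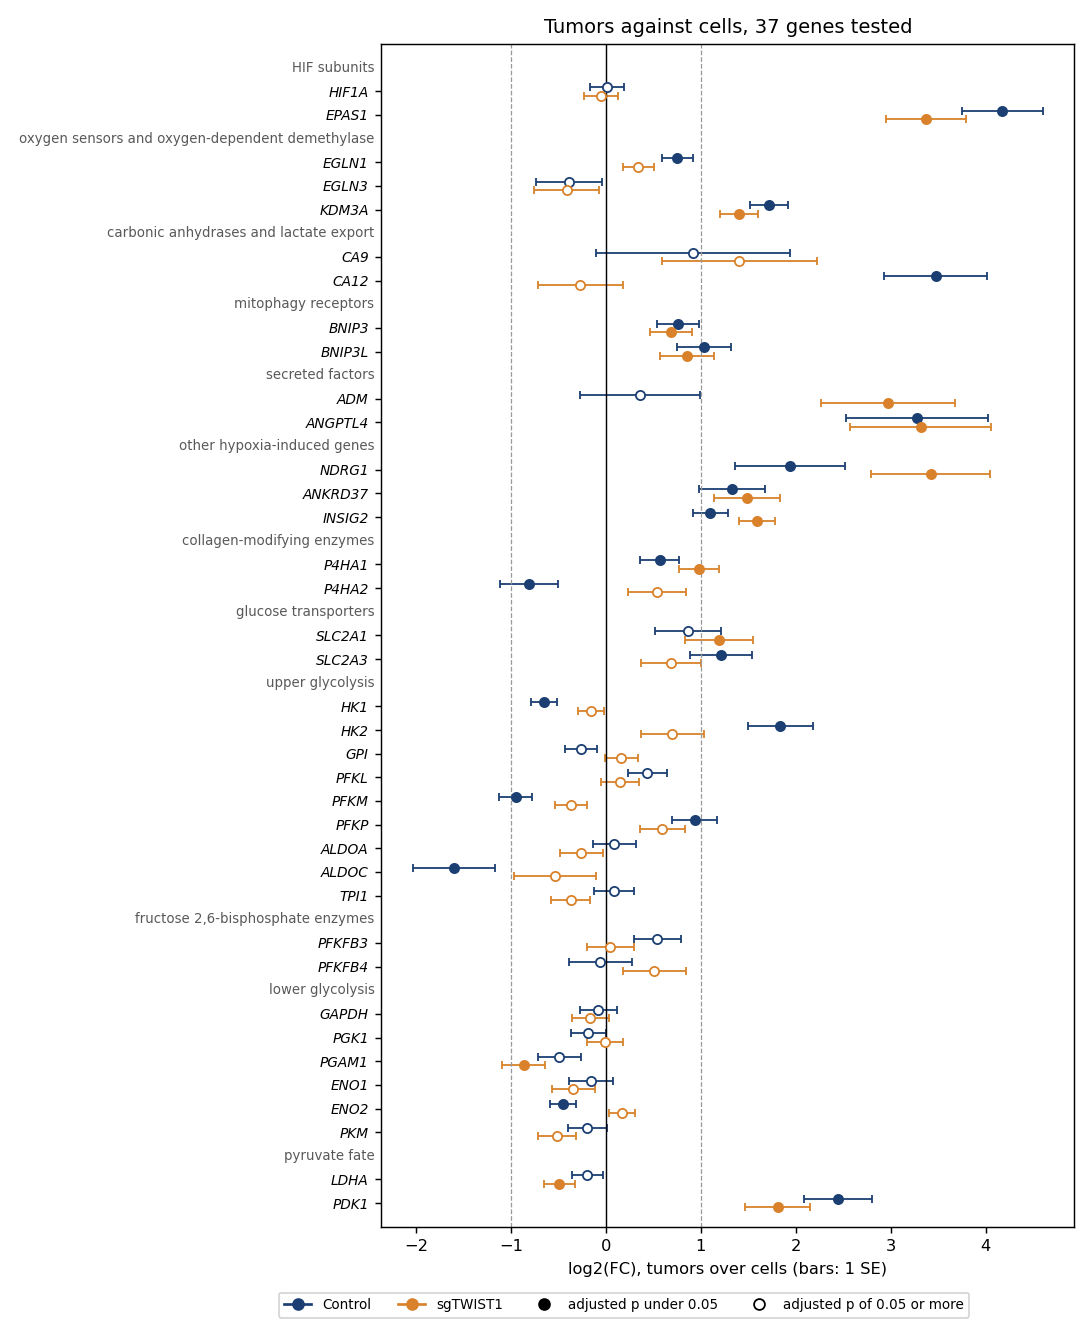
Log2(FC) of tumors over cells (x axis, bars 1 SE) for the 37 genes tested (y axis, grouped by role), in Control (blue) and sgTWIST1 (orange) samples. Filled points have an adjusted p under 0.05 and dashed lines mark the DE threshold. Hypoxia genes in the upper part lie mostly right of 0, whereas the lower glycolytic enzymes lie close to it.

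Of the 37 genes, 10 rose in both genotypes, EPAS1, KDM3A, BNIP3, BNIP3L, ANGPTL4, NDRG1, ANKRD37, INSIG2, P4HA1 and PDK1, and no gene fell in both. Of all genes tested, 10.8% rose and 8.66% fell in both genotypes. Of the 10, ANGPTL4, NDRG1, ANKRD37 and PDK1 passed the filter only through the tumors, where they were high. The filter thus favoured their place in this count. The shares of all genes were not recomputed without genes let in the same way. EPAS1 had the largest log2(FC) of the 10 in Control, and NDRG1 in sgTWIST1. EPAS1 was at 9.55, 22.6 and 14.6 CPM in Control cells and at 3.05, 6.23 and 10.7 CPM in sgTWIST1 cells. In tumors it reached 353, 308, 230 and 235 CPM in Control and 42.0, 57.7, 93.0 and 76.1 CPM in sgTWIST1. Every tumor was above every cell clone, and every Control tumor above every sgTWIST1 tumor. The log2(FC) from cells to tumors was 4.18 ± 0.43 in Control and 3.37 ± 0.42 in sgTWIST1 (adjusted p = 1.08e-05 and 4.04e-05). HIF1A, the gene for HIF-1 alpha, did not pass the test in either genotype (log2(FC) = 0.01 ± 0.18 and -0.05 ± 0.18).

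As a share of the summed RPKM of HIF1A and EPAS1, EPAS1 made up 1.13% to 3.03% in Control cells and 0.326% to 1.24% in sgTWIST1 cells. In tumors this share was 20.7% to 33.0% in Control and 4.22% to 13.7% in sgTWIST1. Reads that matched both species were kept in the human table, so the murine gene is given beside it. The murine Epas1 counts were 1.55% to 43.7% of the human and murine counts together. Control tumor 2 had the lowest murine share of all counts (2.44%) and 308 CPM of human EPAS1. The part of murine reads in the human level was not tested.

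ANGPTL4, a secreted regulator of lipoprotein lipase, passed the filter only through the tumors and had the same direction in both genotypes. It was at 1.19, 1.71 and 2.68 CPM in Control cells and at 0.637, 1.24 and 4.28 CPM in sgTWIST1 cells. Tumors held 23.7, 22.8, 14.4 and 10.98 CPM in Control and 5.38, 10.7, 15.9 and 45.5 CPM in sgTWIST1. All tumors lay above all clones, and sgTWIST1 tumors 1 and 4 spanned the whole range. The log2(FC) was 3.28 ± 0.75 in Control and 3.31 ± 0.74 in sgTWIST1 (adjusted p = 0.00376 and 0.00332). NDRG1, a growth-related gene strongly induced by hypoxia, rose by 1.94 ± 0.58 in Control and by 3.42 ± 0.63 in sgTWIST1 (adjusted p = 0.0173 and 0.000748). The Control call was lost without Control clone 1 or without Control tumor 1 (adjusted p = 0.0518 to 0.0569).

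KDM3A, a histone demethylase that needs oxygen, was at 22.9 to 25.6 CPM in Control cells and 33.8 to 36.6 CPM in sgTWIST1 cells. It was at 59.9 to 116 CPM in Control tumors and 75.1 to 103 CPM in sgTWIST1 tumors, with no overlap between cells and tumors. The log2(FC) was 1.72 ± 0.20 and 1.40 ± 0.20 (adjusted p = 2.79e-05 and 9.98e-05). Of the oxygen sensors themselves, EGLN1 rose in Control (0.76 ± 0.16, adjusted p = 0.00266) and differed by 0.34 ± 0.16 in sgTWIST1 (adjusted p = 0.103). The difference between the genotypes did not pass the interaction test (adjusted p = 0.250). EGLN3 did not pass in either genotype (-0.39 ± 0.34 and -0.41 ± 0.34).

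ANKRD37, an ankyrin-repeat protein, rose by 1.33 ± 0.34 and 1.48 ± 0.35, and INSIG2, which restrains sterol synthesis, by 1.10 ± 0.19 and 1.59 ± 0.19. The mitophagy receptors BNIP3 and BNIP3L rose by 0.76 ± 0.22 and 1.04 ± 0.29 in Control and by 0.69 ± 0.22 and 0.85 ± 0.29 in sgTWIST1. P4HA1, a collagen prolyl hydroxylase, rose by 0.57 ± 0.20 in Control (adjusted p = 0.0418) and by 0.98 ± 0.21 in sgTWIST1 (adjusted p = 0.00213). With no filter on low values all genes tested shifted by -0.25 in Control and -0.19 in sgTWIST1 on the log2 scale, and the calls of BNIP3 in both genotypes, BNIP3L in sgTWIST1, and EGLN1 and P4HA1 in Control were then lost. Leaving out 1 sample also lost BNIP3 in sgTWIST1 (without clone 1 or tumor 4, adjusted p = 0.0657 to 0.102), BNIP3L in sgTWIST1 (without clone 1 or 3 or tumor 3 or 4, 0.0520 to 0.102) and P4HA1 in Control (without any 1 clone or tumor 1, 2 or 4, 0.0543 to 0.123). P4HA2, the paralog of P4HA1, fell in Control (-0.81 ± 0.30, adjusted p = 0.0476), a call lost when any sample but Control clone 1 was left out (0.0616 to 0.215).

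Of the glycolysis genes, PDK1 alone rose in both genotypes. It was at 6.73, 6.08 and 16.2 CPM in Control cells and at 22.0, 29.8 and 26.7 CPM in sgTWIST1 cells. Control tumors held 75.1, 60.7, 33.2 and 41.0 CPM and sgTWIST1 tumors 66.9, 89.7, 100 and 110 CPM. Tumors and cells did not overlap in either genotype (log2(FC) = 2.45 ± 0.36 and 1.81 ± 0.34, adjusted p = 0.000156 and 0.000918). HK2, the inducible hexokinase, rose by 1.84 ± 0.34 in Control (adjusted p = 0.000992) and differed by 0.70 ± 0.33 in sgTWIST1 (adjusted p = 0.103). Its difference between the genotypes did not pass the interaction test (adjusted p = 0.119). HK1, the constitutive hexokinase, fell in Control (log2(FC) = -0.65 ± 0.14, adjusted p = 0.00214). ALDOC, the brain-type aldolase, had a log2(FC) of -1.60 ± 0.43 in Control (adjusted p = 0.0100), which became -0.997 without Control clone 2 (adjusted p = 0.0805). In sgTWIST1, HK1 and ALDOC differed by -0.16 ± 0.14 and -0.53 ± 0.43. Neither passed the interaction test (adjusted p = 0.110 and 0.270). Of the glucose transporters, SLC2A3 rose in Control (1.22 ± 0.33, adjusted p = 0.00998) and SLC2A1 in sgTWIST1 (1.19 ± 0.35, adjusted p = 0.0158). The other genotype gave 0.69 ± 0.32 for SLC2A3 and 0.87 ± 0.35 for SLC2A1, and neither difference between the genotypes passed the interaction test (adjusted p = 0.461 and 0.696). With the counts of its pseudogenes added, which made up 2.23% to 44.9% of the sum, SLC2A3 in Control no longer passed (0.77, adjusted p = 0.056). Without sgTWIST1 clone 2, neither did SLC2A1 (1.12, adjusted p = 0.0598).

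The 6 lower glycolytic enzymes had log2(FC) between -0.49 and -0.08 in Control and between -0.87 and 0.17 in sgTWIST1. ENO2 fell in Control (-0.45 ± 0.14, adjusted p = 0.0200) and PGAM1 in sgTWIST1 (-0.87 ± 0.22, adjusted p = 0.00741). LDHA, which turns pyruvate into lactate, fell in sgTWIST1 (-0.49 ± 0.16, adjusted p = 0.0293). Control gave -0.49 ± 0.22 for PGAM1 and -0.19 ± 0.16 for LDHA. Neither gene passed the interaction test (adjusted p = 0.46 and 0.43). The ENO2 call was lost without Control clone 2 or Control tumor 2 (adjusted p = 0.0543 to 0.0551), and the LDHA call without sgTWIST1 clone 2 or 3 or sgTWIST1 tumor 2 or 3 (adjusted p = 0.0567 to 0.120). The LDHA level was low throughout, at 4.28 to 6.15 RPKM as group means, whereas LDHB, the other main subunit, was at 234 to 530 RPKM. Murine Ldha counts were 18.8% to 81.8% of the human and murine counts together in the tumors.

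In culture, the carbonic anhydrases CA9 and CA12 were lower and ADM was higher in Control than in sgTWIST1 clones. Of 37 genes, 6 passed the test with higher levels in Control and 11 with higher levels in sgTWIST1, beside 19.8% and 17.1% of all genes tested. DE genes numbered 6, namely ADM, higher in Control, and CA9, CA12, HK2, PFKP and PDK1, higher in sgTWIST1, against 14.5% of all genes. The median log2(FC) of the 37 genes was -0.17, and of all genes 0.00. The glycolysis genes went in both directions, with 4 of 21 higher in Control and 6 in sgTWIST1.

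**Figure D2:**
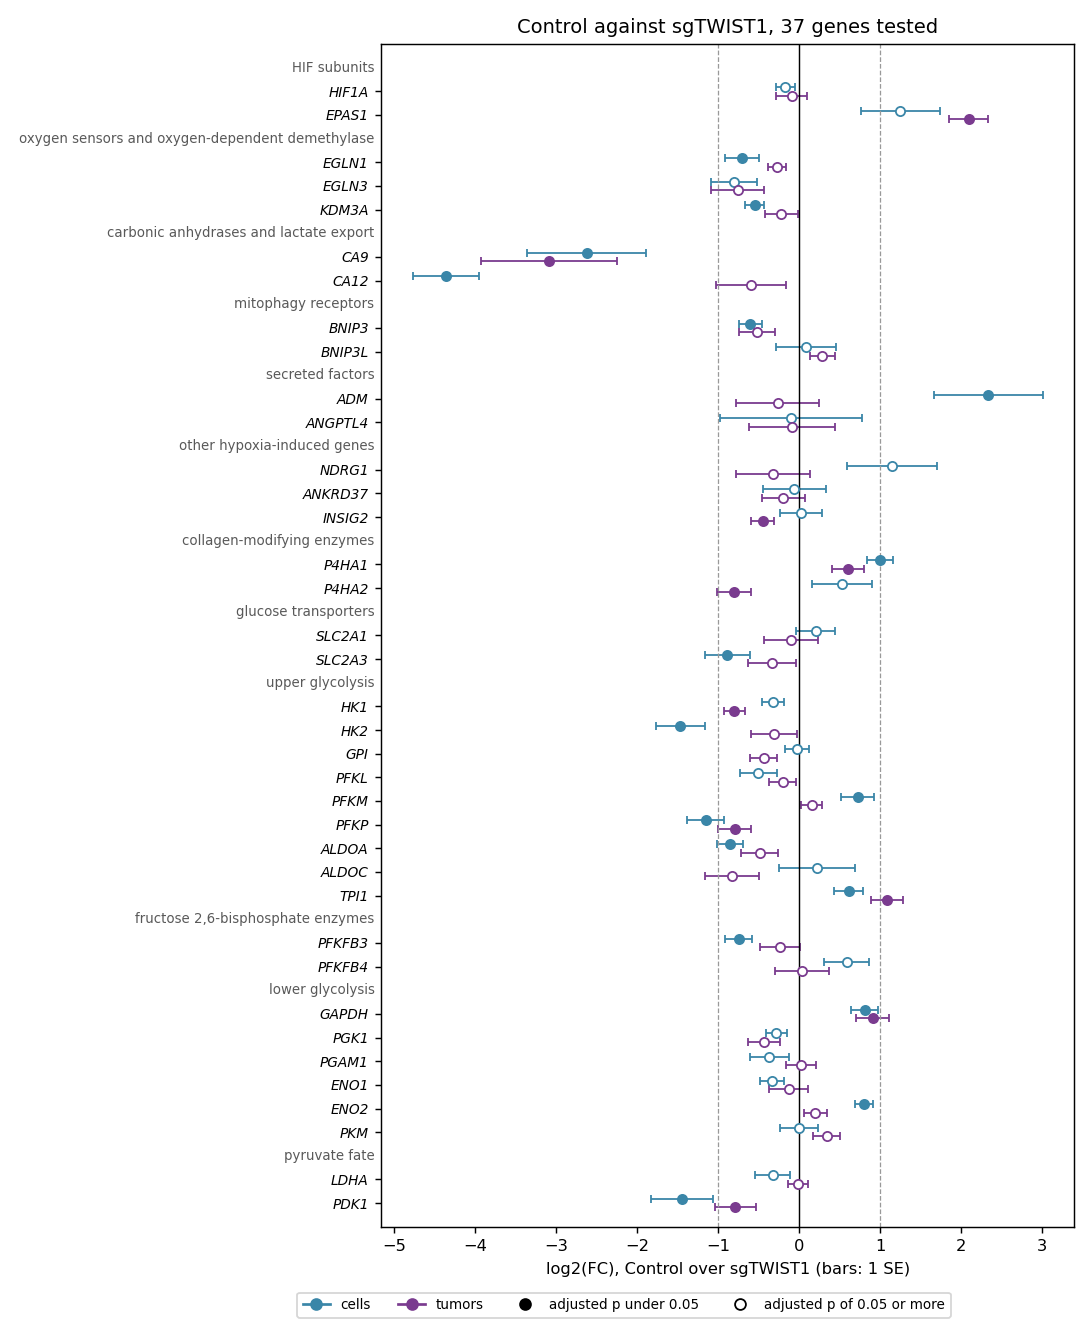
Log2(FC) of Control over sgTWIST1 (x axis, bars 1 SE) for the 37 genes tested (y axis, grouped by role), in cells (blue) and tumors (purple). Filled points have an adjusted p under 0.05 and dashed lines mark the DE threshold. CA12 at -4.36 in cells and -0.59 in tumors is the widest gap between the sites.

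CA12, a membrane carbonic anhydrase, was at 1.56, 1.10 and 2.502 CPM in Control clones and at 27.2, 26.6 and 51.4 CPM in sgTWIST1 clones. The groups were far apart (log2(FC) = -4.36 ± 0.41, adjusted p = 0.000328). In tumors CA12 was at 22.9, 29.0, 8.68 and 15.7 CPM in Control and at 13.9, 18.8, 35.1 and 48.7 CPM in sgTWIST1. The tumor groups overlapped (-0.59 ± 0.43, adjusted p = 0.284), and CA12 rose from cells to tumors in Control (3.48 ± 0.54, adjusted p = 0.00027) but did not pass in sgTWIST1 (-0.27 ± 0.45, adjusted p = 0.657). It was the only one of the 37 genes whose genotype difference passed the test of change between the sites, at 3.74 ± 0.69 (adjusted p = 0.00274). Of all genes tested, 8.05% were DE in this test. A further count by direction, at any size, gave 4.35% with a Control excess larger in tumors than in cells and 8.55% with the opposite. P4HA2 and ENO2 came closest after it (adjusted p = 0.0537 and 0.0534), and with DESeq2 the test was passed by CA12, P4HA2, ENO2 and ADM.

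CA9, the carbonic anhydrase most used as a hypoxia marker, was lower in Control at both sites. It was at 0.238, 0.284 and 0.307 CPM in Control clones, or 7 to 8 counts each, and at 0.425, 2.71 and 2.06 CPM in sgTWIST1 clones. In tumors it was at 0.342, 1.24, 0.125 and 0.502 CPM in Control and at 1.40, 1.76, 3.31 and 11.8 CPM in sgTWIST1. The groups did not overlap at either site, and sgTWIST1 tumor 4 stood well above the rest. The log2(FC) was -2.62 ± 0.74 in cells (adjusted p = 0.0278) and -3.09 ± 0.84 in tumors (adjusted p = 0.0127). With so few counts the calls were fragile. In cells the call was lost without Control clone 1 or 3 or sgTWIST1 clone 2 or 3 (adjusted p = 0.0677 to 0.107), and in tumors without sgTWIST1 tumor 4 (log2(FC) = -1.98, adjusted p = 0.0514). CA9 passed the filter on low values only through sgTWIST1 tumor 4, in the group where it was high. The 73 other tested genes within 10 Mb of CA9 on chromosome 9 had median log2(FC) of 0.69 in both cells and tumors, the opposite sign.

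ADM, the secreted vasodilator adrenomedullin, was at 2.38, 7.25 and 3.25 CPM in Control clones and at 0.690, 0.317 and 1.68 CPM in sgTWIST1 clones. The clones did not overlap (log2(FC) = 2.33 ± 0.67, adjusted p = 0.0328). With the clone numbers as a replicate block the call was just lost (2.30, adjusted p = 0.0523), as it was when any of Control clones 2 and 3 and sgTWIST1 clones 1 and 2 was left out (adjusted p = 0.054 to 0.113). In tumors the groups overlapped, from 2.44 to 8.81 CPM in Control and from 2.34 to 9.34 CPM in sgTWIST1 (-0.26 ± 0.51, adjusted p = 0.702). In sgTWIST1 samples ADM rose from cells to tumors by 2.97 ± 0.71 (adjusted p = 0.00465). In Control it differed by 0.36 ± 0.63 (adjusted p = 0.68), and the interaction test of edgeR was not passed (adjusted p = 0.0748).

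At the entry of glycolysis, HK2 was at 28.1, 18.8 and 39.1 CPM in Control clones and at 103, 60.2 and 74.7 CPM in sgTWIST1 clones. All sgTWIST1 clones lay above all Control clones (-1.47 ± 0.30, adjusted p = 0.00869). PFKP, the platelet-type phosphofructokinase, was at 67.2, 86.7 and 124 CPM in Control and at 181, 211 and 226 CPM in sgTWIST1 clones (-1.16 ± 0.22, adjusted p = 0.00700). PFKM, the muscle-type enzyme, went the other way (0.72 ± 0.21, adjusted p = 0.0309), although its call was lost without Control clone 3 or any 1 of the sgTWIST1 clones (adjusted p = 0.0548 to 0.109). PDK1 was lower in Control clones (-1.44 ± 0.38, adjusted p = 0.0236), and this call was lost without Control clone 1 or sgTWIST1 clone 2 or 3 (adjusted p = 0.052 to 0.0797).

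Of the other genes, ALDOA, which splits fructose 1,6-bisphosphate, was lower in Control clones (-0.85 ± 0.16, adjusted p = 0.00660), as were PFKFB3, which makes the activator fructose 2,6-bisphosphate (-0.75 ± 0.17, adjusted p = 0.0126), and SLC2A3 (-0.89 ± 0.28, adjusted p = 0.0421). The oxygen-dependent enzymes EGLN1 (-0.71 ± 0.21) and KDM3A (-0.55 ± 0.12) and the mitophagy receptor BNIP3 (-0.60 ± 0.14) were lower in Control clones too. Leaving out 1 clone lost the calls of SLC2A3 (without Control clone 1 or sgTWIST1 clone 1 or 3, adjusted p = 0.0712 to 0.132), EGLN1 (without Control clone 3 or sgTWIST1 clone 1 or 2, 0.0523 to 0.103) and BNIP3 (without sgTWIST1 clone 2 or 3, 0.0555 to 0.0637). With its pseudogenes added, SLC2A3 did not pass either (-0.71, adjusted p = 0.0659). P4HA1 was higher in Control (1.00 ± 0.16, adjusted p = 0.00300), just under the DE threshold. EPAS1 and NDRG1 did not pass (1.24 ± 0.49 and 1.14 ± 0.55, adjusted p = 0.0861 and 0.147), but did with the replicate block (1.32 and 1.06, adjusted p = 0.0251 and 0.0168). EGLN3 and PFKL were gained likewise, with log2(FC) of -0.81 and -0.53.

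**Figure D3:**
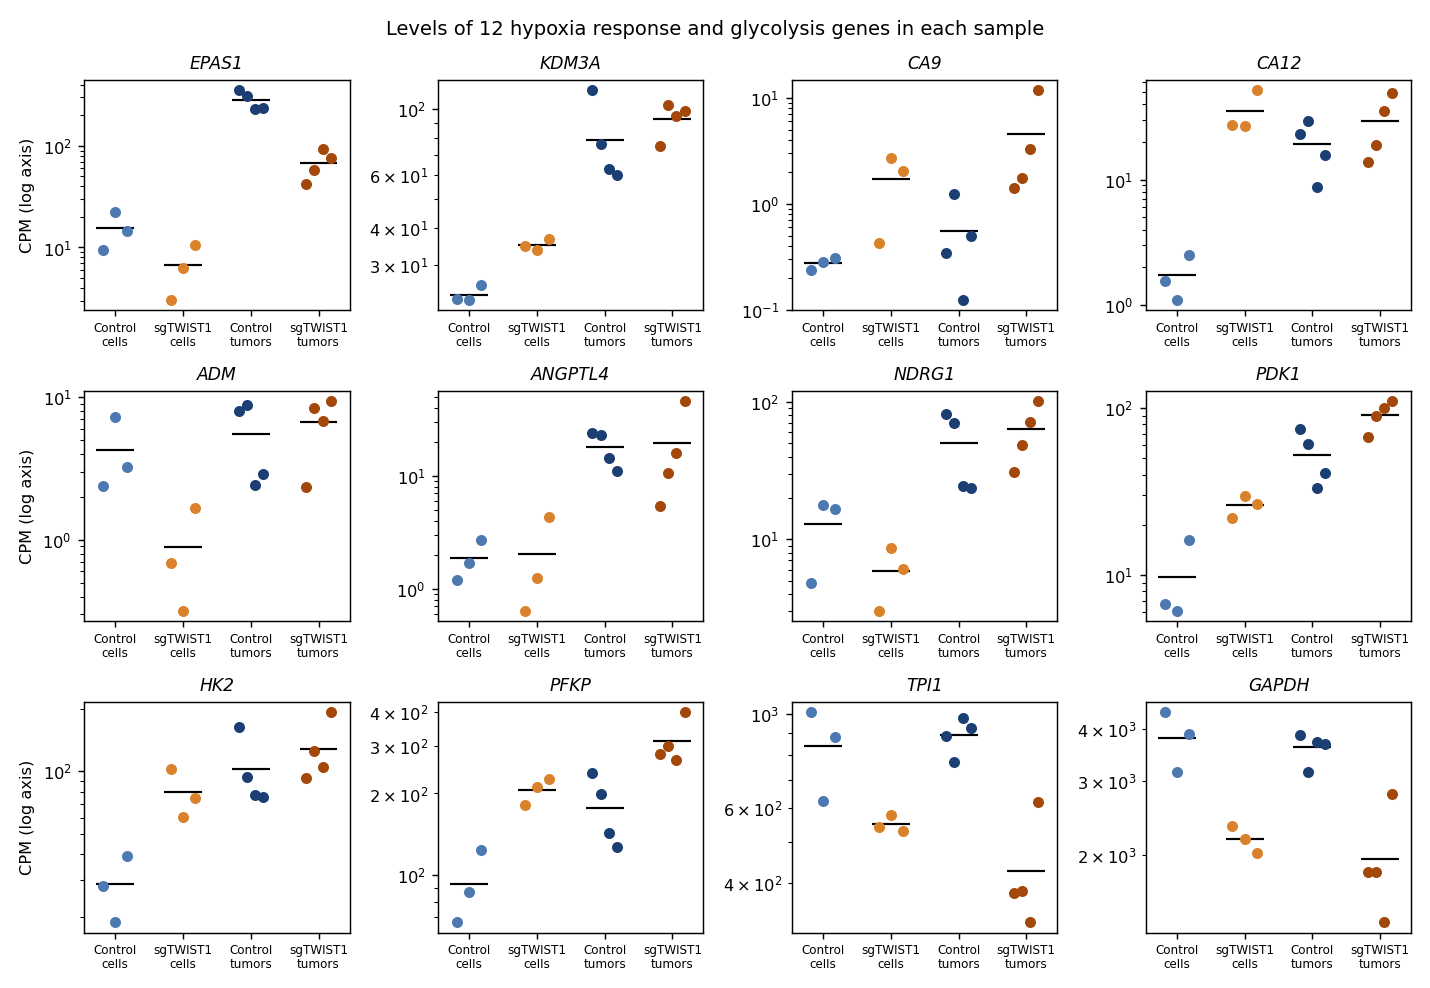
Levels in CPM (y axis, log scale) of 12 genes in each of the 14 samples, by group (x axis). Points are samples and the bar is the mean of the group. EPAS1, ANGPTL4, NDRG1 and PDK1 lie higher in all tumors than in all clones of the same genotype, and CA12 is low only in Control cells.

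Between the tumors, EPAS1 was the gene furthest apart by its adjusted p. Of 37 genes, 4 were higher in Control and 6 in sgTWIST1, against 24.0% and 23.0% of all genes tested. With no filter on low values the counts were 3 and 8, and with DESeq2 they were 4 and 13. EPAS1, CA9 and TPI1 were DE, against 14.3% of all genes, and CA9 had passed the filter only through sgTWIST1 tumor 4. EPAS1 was higher in Control by 2.09 ± 0.24 (adjusted p = 7.91e-05), from 230 to 353 CPM against 42.0 to 93.0 CPM. Murine Epas1 did not go with it, at 297 ± 138 murine CPM in Control and 341 ± 24.6 in sgTWIST1 tumors (SD, n = 4 each).

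At both sites, 3 genes were higher in Control and 3 were lower, against 12.4% and 10.8% of all genes tested. The higher ones were P4HA1, TPI1 and GAPDH, and the lower ones CA9, PFKP and PDK1. PFKP was at 238, 199, 143 and 127 CPM in Control tumors and at 281, 300, 267 and 397 CPM in sgTWIST1 tumors, with no overlap (-0.80 ± 0.21, adjusted p = 0.00993). PDK1 overlapped between the tumor groups (-0.79 ± 0.25, adjusted p = 0.0244), and its call was lost without Control tumor 3 or 4 or sgTWIST1 tumor 4 (adjusted p = 0.0508 to 0.0666). P4HA1 also overlapped (0.60 ± 0.20, adjusted p = 0.0315), and its call was lost when any tumor but Control tumor 3 or sgTWIST1 tumor 4 was left out (adjusted p = 0.0579 to 0.0962). HK1 (-0.80 ± 0.13), INSIG2 (-0.45 ± 0.14) and P4HA2 (-0.80 ± 0.21) were lower in Control tumors, with adjusted p = 0.000643, 0.0229 and 0.0103. The INSIG2 call was lost without Control tumor 3 or 4 or sgTWIST1 tumor 4 (adjusted p = 0.0510 to 0.0623).

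TPI1 and GAPDH, which act on the triose phosphates, lie with ENO2 and SLC2A3 on the short arm of chromosome 12. TPI1 (chr12:6976283-6980112 on GRCh37) was at 1008, 623 and 885 CPM in Control clones and at 543, 579 and 529.6 CPM in sgTWIST1 clones. In tumors it was at 887, 770.5, 979 and 925 CPM in Control and at 378, 382, 323 and 620 CPM in sgTWIST1. No groups overlapped (0.61 ± 0.18 in cells, adjusted p = 0.0373, and 1.08 ± 0.20 in tumors, adjusted p = 0.00135). In cells the replicate block gave an adjusted p of 0.0561, and the call was lost when any clone but Control clone 2 was left out (adjusted p = 0.0854 to 0.122).

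GAPDH (chr12:6643678-6647540) was at 4388, 3162 and 3891 CPM in Control clones and at 2341, 2184 and 2020 CPM in sgTWIST1 clones. In tumors it was at 3869, 3162, 3736 and 3696 CPM in Control and at 1818, 1817, 1377 and 2793 CPM in sgTWIST1. Its groups did not overlap either (0.81 ± 0.16 and 0.91 ± 0.21, adjusted p = 0.00822 and 0.00464). With no filter on low values, GAPDH in tumors no longer passed (0.75, adjusted p = 0.0678). ENO2, the neuronal enolase, was higher in Control clones (0.80 ± 0.12, adjusted p = 0.00203) but not past the test in tumors (0.20 ± 0.14).

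The neighbours moved with these genes. The 126 other tested genes that start before 35000000 on chromosome 12 had median log2(FC) of 0.87 in cells and 0.88 in tumors, where all genes had 0.00 in both. SLC2A3 alone among the 4 had the opposite sign, at -0.89 in cells and -0.34 in tumors. ENO2 shared the sign but lay below the median of the neighbours in tumors, at 0.20 ± 0.14. LDHB, on the same arm, was at 1474 to 1716 CPM in Control clones and 862 to 940.4 CPM in sgTWIST1 clones. Whether the copy number of the arm differs was not tested.

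Shares between related genes are free of the scaling between samples. PFKP made up 13.4% to 25.1% of the phosphofructokinase RPKM in Control clones and 41.4% to 44.7% in sgTWIST1 clones. In tumors its share was 35.2% to 49.3% in Control and 55.1% to 59.0% in sgTWIST1. PFKM took most of the remainder, with 76.5% ± 5.90 in Control clones, 49.7% ± 1.99 in sgTWIST1 clones, 49.6% ± 8.04 in Control tumors and 34.6% ± 2.10 in sgTWIST1 tumors (SD, n = 3 or 4). The groups did not overlap at either site.

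BNIP3 made up 43.2% to 50.7% of the BNIP3 and BNIP3L RPKM in Control tumors and 54.8% to 63.0% in sgTWIST1 tumors. The LDHA share was 0.988% to 1.37% in Control tumors and 1.75% to 2.05% in sgTWIST1 tumors. LDHA itself did not pass between the tumors (log2(FC) = -0.02 ± 0.12, adjusted p = 0.915, edgeR quasi-likelihood test). LDHB, on the short arm of chromosome 12, was at 898 to 1381 CPM in Control tumors and 549 to 786 CPM in sgTWIST1 tumors. A set of 10 shares was compared at each site, and 5 did not overlap in tumors, those of PFKP, PFKM, LDHA, BNIP3 and EPAS1. For each of them the 2-sided exact permutation test gave p = 0.0286, the smallest that 4 against 4 allows, and p = 0.114 after adjustment over 20 comparisons. In cells the same exact permutation test of 3 against 3 cannot go below p = 0.1, which 7 shares reached (adjusted p = 0.154). No share thus passed the correction. The shares of PFKP and PFKM are parts of the same sum and so are not independent of each other. How often the shares of other related genes failed to overlap was not computed.

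**Figure D4:**
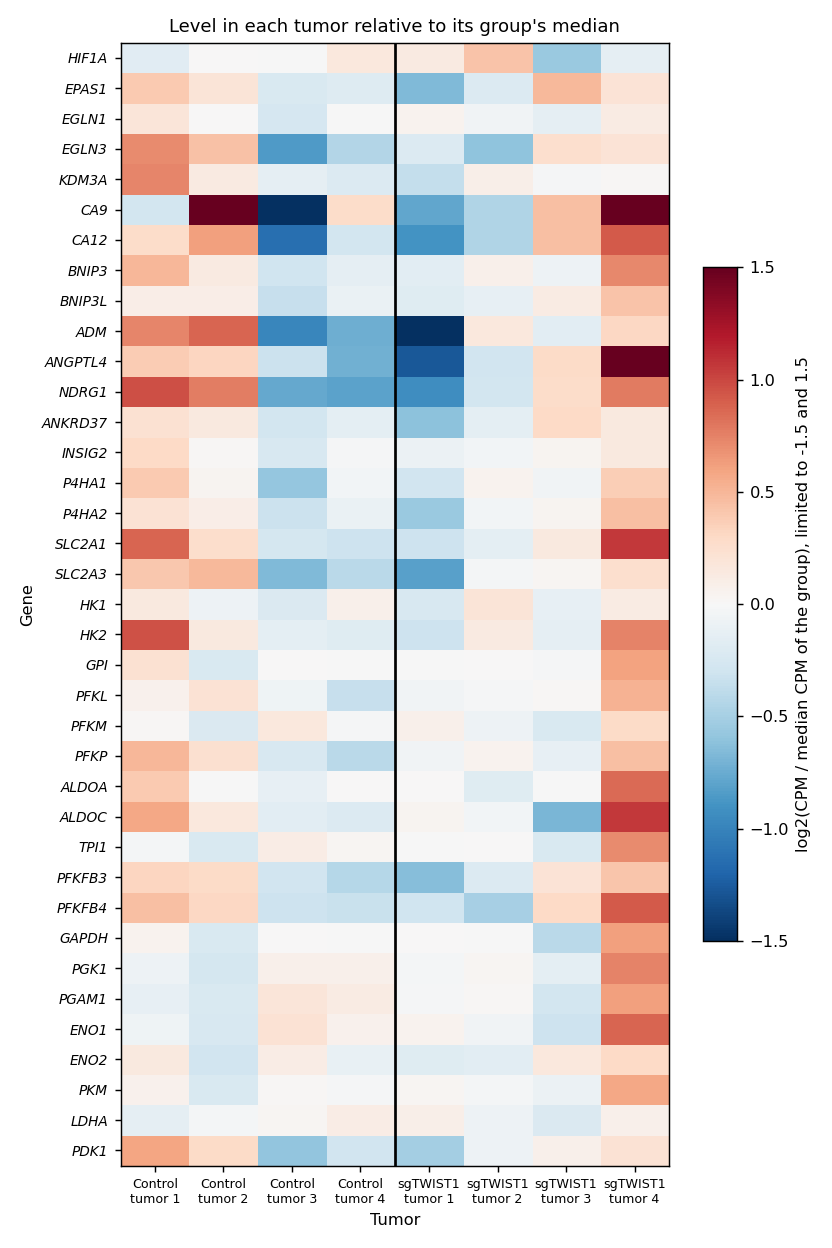
Level of the 37 genes (y axis) in each of the 8 tumors (x axis) as log2 of CPM over the median of its own group, in colour from -1.5 (blue) to 1.5 (red). sgTWIST1 tumor 4 and Control tumor 1 are mostly red, and sgTWIST1 tumor 1 and Control tumor 3 mostly blue among the hypoxia genes.

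The tumors of 1 group differed from each other in these genes. Of the 37 genes, 30 were highest in tumor 4 among the sgTWIST1 tumors (81.1%), against 24.9% of all genes tested, and 21 were lowest in tumor 1 (56.8%, against 17.6%). Of the 21 glycolysis genes 19 were highest in tumor 4. Among Control tumors 24 genes were highest in tumor 1 (64.9%, against 19.4%) and 16 lowest in tumor 3 (43.2%, against 27.0%). Among the sgTWIST1 tumors, ALDOA reached 2049 CPM in tumor 4 and lay between 1000 and 1137 CPM in the remaining 3. Murine counts were 7.49% of the total in sgTWIST1 tumor 4 and 9.75% in Control tumor 1, both inside the range of their groups. Without Control tumor 1, EGLN3, ALDOC and PDK1 joined EPAS1, CA9 and TPI1 as DE between the tumor groups.

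The 3 genes below the filter had low levels everywhere. LOX, which crosslinks collagen, was at 3.57 to 6.22 CPM in Control clones and 1.14 to 1.75 in sgTWIST1 clones, and at 10.0 to 12.3 CPM in Control tumors and 2.06 to 4.67 in sgTWIST1 tumors. In the fit with no filter, LOX was higher in Control by 1.50 ± 0.35 in cells and 1.52 ± 0.27 in tumors (adjusted p = 0.0111 and 0.00142). PLOD2, a lysyl hydroxylase, held 4 to 129 counts a sample. SLC16A3, which exports lactate, held 70 to 291 counts and stood out in Control tumor 2, at 15.6 CPM against 2.19 to 4.18 in the other 3. Murine counts outweighed human ones in the median tumor for SLC16A3, PLOD2, LOX and LDHA (74.7%, 90.8%, 90.4% and 62.3% of both), and for the other 36 genes they did not.

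The murine table shows the same genes in the host cells of the tumors. All 40 counterparts were found and tested, 3 of them under other symbols (Car9, Car12 and Gpi1). None was DE, as was none of the 12758 murine genes tested (0.0%) with edgeR's quasi-likelihood test, in which 3 of the 40 and 657 of all genes had an unadjusted p under 0.05. DESeq2 called 54 murine genes and none of the 40. The paper does report murine DE genes between these tumors at the same thresholds, with DESeq2 and another filter on low values. Of the 40, Pfkm had the lowest adjusted p in edgeR's test, with a log2(FC) of 1.63 ± 0.45 (adjusted p = 0.598). Murine Bnip3l was at 541 ± 718 CPM in Control and 129 ± 23.6 in sgTWIST1 tumors (SD, n = 4 each). The 5 murine red blood cell markers summed to 6130 to 285200 CPM in Control and 1948 to 8861 in sgTWIST1 tumors. Bnip3l was highest in Control tumor 2 (1608 CPM), and the part of blood in this value was not tested.

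Of 66 other genes of the pathways, 49 were tested. In cells 11 were higher in Control and 7 lower, against 19.8% and 17.1% of all genes tested. In tumors 10 were higher and 12 lower, against 24.0% and 23.0%. ARNT2, an alternative partner of the HIF alpha subunits, was higher in Control by 1.45 ± 0.47 in cells and 2.34 ± 0.48 in tumors (adjusted p = 0.0469 and 0.00272). In sgTWIST1 samples 13 of the 27 other hypoxia targets rose from cells to tumors and 5 fell, beside 22.7% and 17.8% of all genes. In Control 6 rose and 3 fell, beside 18.3% and 19.4%. VEGFA, the main angiogenic factor, rose in sgTWIST1 (1.51 ± 0.46, adjusted p = 0.0169) and differed by 1.10 ± 0.45 in Control (adjusted p = 0.0665). The interaction was not past the test (adjusted p = 0.7003). Of the 16 other glycolysis and pyruvate genes tested, 9 fell from cells to tumors in Control and none rose, beside 19.4% and 18.3% of all genes. In sgTWIST1 4 of these fell and 1 rose, beside 17.8% and 22.7%. PDP1, the phosphatase that opposes PDK1, was lower in Control tumors by 1.31 ± 0.11 on the log2 scale (log2(FC) = -1.31, adjusted p = 1.13e-05).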

How the data were processed

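Total RNA of 3 Control and 3 sgTWIST1 clones and of 4 Control and 4 sgTWIST1 tumors was depleted of ribosomal RNA and sequenced as single reads. Per the labels and the study's methods, the authors mapped reads to hg19 and mm10 with STAR 2.5.2b, kept reads matching both species in the human set only, and deposited expected counts per gene from RSEM 1.3.0. The GENCODE release is not given in the sources used here. There were 57820 human genes in 19 columns and 49585 murine genes in 8. No normalized values were used.

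Expected counts were rounded and the batches of a clone summed (sgTWIST1 clone 3 had only batch 1). Tests covered protein-coding genes whose highest log2 RPKM over the deposited columns exceeded 1, with exon lengths from the GRCh37 annotation. edgeR 4.0.16 with TMM and its quasi-likelihood test was the main test, DESeq2 1.42.0 the alternative, both in R 4.3.3, and p-values were adjusted by Benjamini-Hochberg across every gene in a fit. Cells and tumors were fitted separately between genotypes, and all 4 groups in 1 fit for tumors against cells and the interaction. The SE was the log2(FC) over the root of F. The murine DE threshold was 0.5 on the log2 scale.

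All 40 genes were reported, those DE in full, TWIST1 as the edited gene, and other pathway genes where DE. The genes and lists were chosen with earlier results of these data known. Values of 1 gene named beside its group were chosen after they were seen where the rule did not name it. Clones and tumors are the replicates, and whether clones of 1 number share a passage is not stated. The fits reported first are unpaired. The clone numbers entered an alternative fit as a replicate block, whose values stand beside the calls it changes in cells, since the residuals of same-numbered Control and sgTWIST1 clones correlated at 0.1002 to 0.316, whereas those of same-numbered tumors ranged from -0.191 to 0.283. On simulated data with 200 genes changed by 2 log2 units among 10889, edgeR recovered 193 with 10 false calls in cells and 196 with 6 in tumors. A gene at 3 counts would have 0.06 to 0.14 CPM in these libraries. Shares used exact permutation tests in scipy 1.17.1.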

Additional observations from a re-analysis of the deposited data

Results flagged for a closer look

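Of 80 sets of 4 tumors, 6 held 1 sample far from the others, where chance flags about 1 set in 20. In sgTWIST1 tumor 4, GPI was at 1005 CPM against 653 to 663, PFKL at 61.7 CPM against 41.6 to 43.6, ALDOA at 2049 CPM against 1000 to 1137, PGK1 at 1467 CPM against 794 to 896, and PKM at 1712 CPM against 1085 to 1168. All 5 are glycolytic enzymes of 1 tumor and so are not independent of each other. In Control tumor 2, SLC16A3 was at 15.6 CPM against 2.19 to 4.18, in the tumor with the lowest murine share.

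CA12 was the gene whose genotype difference changed between cells and tumors, by 3.74 ± 0.69 on the log2 scale (adjusted p = 0.00274, edgeR quasi-likelihood test). It passed under every alternative tried.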

How the results depend on the processing

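The counts of DE genes among the 37 were within 1.5 times of 6 in cells, 12 in Control and 9 in sgTWIST1 between tumors and cells under every alternative tried, with 4 to 6, 10 to 14 and 9 to 10 when 1 sample was left out and 8 in cells with the replicate block. Genes past the test, 17 in cells and 10 in tumors, became 26 in cells with batches as separate columns, 10 to 19 without 1 clone and 17 in tumors with DESeq2. In tumors, 3 became 6 without Control tumor 1, and leaving out the other tumors gave 3 to 4. The interaction count of 1 became 3 with DESeq2, and 1 to 3 when 1 sample was left out (3 without Control clone 1 or sgTWIST1 tumor 1, 2 without sgTWIST1 clone 3). The murine count of 0 became 5 with no filter on low values (Bnip3l, Car12, Plod2, Pfkm and Egln3), and 0 to 1 when 1 tumor was left out (Egln3, without Control tumor 1). With no filter the median of the genes tested shifted by -0.11 in cells, -0.15 in tumors, -0.25 and -0.19 in tumors against cells, and filterByExpr shifted the last comparisons by -0.22 and -0.17. Of all genes past the test, the share that rose from cells to tumors in Control fell from 48.6% to 22.2% with no filter, and in sgTWIST1 from 56.1% to 33.5%. In tumors the share higher in Control fell from 51.1% to 34.6%, and in cells from 53.7% to 43.0%.

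Of 62 values past the test, none changed sign under the alternatives run, 37 stayed past it under all of them, 15 were lost under another tool, scaling, filter or block, and 10 only when a sample was left out. DESeq2 and DESeq2's size factors lost none. The clone numbers as a replicate block lost TPI1 and ADM in cells (adjusted p = 0.0561 and 0.0523) and gained EPAS1, NDRG1, EGLN3 and PFKL. For tumors, whose numbers do not pair the samples, a paired fit moved the 10 genes past the test to 9. Batch 1 alone kept all 17 calls in cells, and the murine share as a covariate all 10 in tumors. Shares kept their sign under counts, pseudogene counts, transcript length (chosen after seeing the data) and with 1 sample left out. Depth limits CA9, PLOD2 and ADM most, with as few as 4, 4 and 11 counts in a sample.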
